A study of Mus musculus with 10 samples.

Results

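The genes described here are Alk and Ltk, which encode a pair of related receptor tyrosine kinases, and the genes of the growth factors midkine (Mdk) and pleiotrophin (Ptn) together with their receptor phosphatase Ptprz1. They were found on the array by gene name, taking every probe of each gene. These 5 genes, of 36161 gene names on the array, had 9 of its 55681 probes, with 1 probe for Alk, 1 for Ltk, 2 for Ptn, 2 for Mdk and 3 for Ptprz1. Of the 9 probes, 7 were bright enough to be tested. The Ltk probe and 1 Ptprz1 probe were not, and their values are given without a test.

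The samples were untreated neuroblastomas of 10 mice, 1 tumour per array. In 5 mice, called ALK/MYCN, the labels give the genotype ALK+/-, MYCN+/- with the F1174L mutant of ALK, on a C57BL/6 x 129X1/SvJ background. The other 5, called MYCN, were MYCN+/- on a 129X1/SvJ background, so that the MYCN transgene is shared by all 10 tumours and the ALK transgene cannot be told apart from the strain background. The promoters that drive the transgenes and the ages of the mice are not given in the sources used here. Tumour RNA carried the dye Cy3, and a reference RNA pooled from 11 mouse cell lines carried Cy5 on every array. A level below is the log2 ratio of tumour over reference for 1 probe, and a difference is the mean ALK/MYCN level minus the mean MYCN level with its standard error. The share of spots brighter than background in Cy3 ran from 53.8% to 58.7% over the arrays, whose number limits the precision. All 10 genes listed as markers of noradrenergic neuroblasts, among them Hand2 and Th, were measured, with a mean level between 4.51 and 4.82 in the 5 ALK/MYCN tumours and between 4.27 and 4.54 in the 5 MYCN tumours. Markers of other tissues were high in several tumours. The mean level of 2 adrenal cortex genes was 5.57 in ALK/MYCN 3, that of 3 kidney genes 4.78 in MYCN 5, and that of 4 skeletal muscle genes 4.87 in MYCN 2 and 2.40 in MYCN 1. For 3 adipocyte genes it ran from -0.21 to 4.81 in the ALK/MYCN group, highest in ALK/MYCN 3, and from 1.01 to 6.36 in the MYCN group, highest in MYCN 4.

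ALK and LTK sit in the cell membrane and are switched on by the small secreted proteins ALKAL1 and ALKAL2. Activating mutations of ALK occur in human neuroblastoma, and F1174L lies in the kinase domain. Midkine and pleiotrophin are heparin-binding growth factors of the developing nervous system. They bind the chondroitin sulfate chains of PTPRZ1, a transmembrane tyrosine phosphatase of glia and neural precursors, and were once proposed as direct ligands of ALK. Syndecans, integrins, LRP1, nucleolin and neuroglycan C (Cspg5) are among their other receptors and co-receptors.

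A level on this array is read by a probe of 60 bases, so the stretch of each transcript that was measured can be shown. The following are the probes of highest intensity of the genes with 2 or 3 probes, whole, in lower case and 5′ to 3′, as the array design gives them.
Ptprz1 A_51_P206405: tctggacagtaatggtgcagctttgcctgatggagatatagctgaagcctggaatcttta
Mdk A_66_P107379: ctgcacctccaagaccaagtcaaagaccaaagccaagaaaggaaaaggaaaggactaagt
Ptn A_55_P2164629: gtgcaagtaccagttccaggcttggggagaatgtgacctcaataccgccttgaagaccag

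Of the other probes 30 bases each are shown, the first 30 except for Mdk, where they are bases 31 to 60. They identify the only probes of Alk and Ltk and the repeat measurements of the other genes.
Alk A_55_P2139501: ttccatgtctcatagggggagtcctaggtg
Ltk A_52_P519783: aggctgggaaacaggtcactggagggtctt
Ptprz1 A_55_P2000439: gaagaaagggtgtaggacatccctcatcca
Ptprz1 A_55_P2173682: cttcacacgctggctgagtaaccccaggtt
Ptn A_55_P2183404: gaagatgctggattaaaagacgccaccgtc
Mdk A_55_P1971897: gttattaagaaatgAATAAAataaactcac

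Capitals mark the hexamer AATAAA, the canonical polyadenylation signal, which was searched in the strand of the probe only. It lies in 1 of the 9 probes and in 10.1% of all 55681 probes, and a match in letters is a description of the probe. The array design places the probes on mouse build mm9. Alk is read at chr17:72218357-72218416 and Ltk at chr2:119577542-119577601, both on the minus strand. Ptn is read at chr6:36691376-36691435 by A_55_P2164629 and at chr6:36665663-36665722 by A_55_P2183404, on the minus strand. The Mdk probe A_55_P1971897 lies at chr2:91769993-91770052, and the 60 bases of A_66_P107379 reach from 91770245 to 91771006 on chromosome 2, a span of 762 bases, so that this probe joins sequence that is not adjacent in the genome; both are on the minus strand. The Ptprz1 probes lie on the plus strand of chromosome 6, A_55_P2173682 at 23000686 to 23000745, A_51_P206405 at 23002046 to 23002106 and A_55_P2000439 at 23002114 to 23002173. The last 2 read neighbouring stretches and are not independent measurements of the gene. Exon and untranslated region boundaries in this build were not used here.

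Of the 4 genes that could be tested, Ptprz1 was the only one to pass, and it rose 3.72-fold in ALK/MYCN tumours on its brightest probe. Alk was high over the reference in all 10 tumours, with a mean that differed by less than the spread between ALK/MYCN tumours. Both Mdk probes gave slightly lower means in ALK/MYCN tumours without passing the test, and Ptn differed by less between the group means than within each group. Of the 7 tested probes 2 passed the threshold of 0.05 (limma, p adjusted by Benjamini-Hochberg over 30857 probes), both higher in ALK/MYCN tumours. Over the whole array 24.9% of tested probes passed, made up of 13.7% higher and 11.2% lower, so that 2 of 7, both of them probes of 1 gene, do not set these genes apart from the rest of the array.

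**Figure D1:**
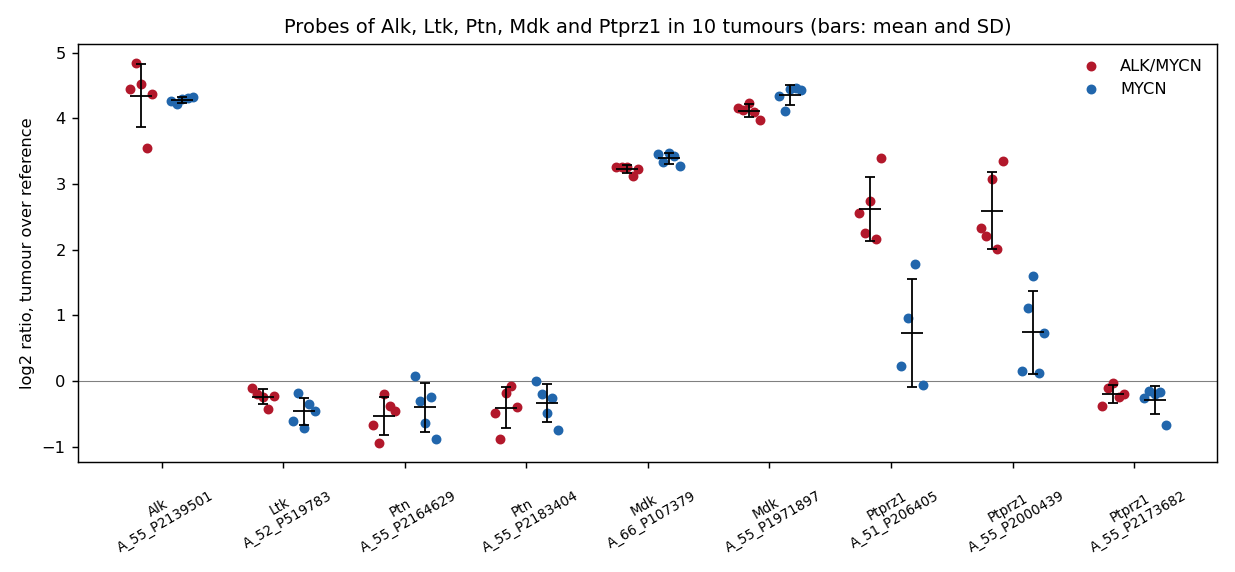
Levels of the 9 probes in 10 tumours, as log2 ratio of tumour over reference on the vertical axis; red points are ALK/MYCN and blue points MYCN tumours, with the mean as a horizontal tick and the SD as a bar. The groups stand apart at Ptprz1 A_51_P206405 and A_55_P2000439 and, by a narrow margin, at Mdk A_66_P107379; heights of different probes are not comparable.

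Alk was well above background in both channels on all 10 arrays, and far brighter in the tumour channel than in the reference. Its levels were 4.45, 4.84, 4.52, 3.55 and 4.38 in ALK/MYCN 1 to 5 and 4.26, 4.22, 4.29, 4.31 and 4.33 in MYCN 1 to 5. The MYCN tumours lay within a narrow range, while ALK/MYCN 4 was the lowest and ALK/MYCN 2 the highest of all 10, so that the MYCN values fell inside the ALK/MYCN range. The means were 4.35 ± 0.48 and 4.28 ± 0.04 (SD, n = 5 each), and the difference was 0.07 ± 0.20 with a 95% confidence interval from -0.37 to 0.50 (limma, adjusted p = 0.838). The direction turned to -0.19 after scaling of the arrays, to -0.13 in the scanner-processed signals and to -0.059 without ALK/MYCN 2, and without ALK/MYCN 4 the difference was 0.27 (adjusted p = 0.080, the lowest on leaving out any tumour). Within slides 1, 2 and 3 it was 0.59, -0.13 and 0.10.

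The 2 channels behind this ratio moved together. The Cy3 mean signal, as scanned, was 6792, 8276, 6243, 2308 and 8432 in ALK/MYCN 1 to 5 and 3583, 2994, 3662, 3196 and 4399 in MYCN 1 to 5. In tumour signal, 4 of the 5 ALK/MYCN tumours therefore lay above every MYCN tumour, and ALK/MYCN 4 lay below all of them. The Cy5 mean signal of the reference, the same RNA on every array, was 272, 269, 242, 160 and 328 against 172, 151, 196, 161 and 191. Across the 10 arrays log2 Cy5 followed log2 Cy3 with r = 0.93, a description of 10 points that share their spots. This r was taken after background correction and quantile normalisation of each channel between arrays, not from the signals as scanned. With Cy3 alone, quantile normalised between arrays, the Alk difference was 0.60 ± 0.30, or 1.52-fold, with an interval from -0.07 to 1.27 (limma, adjusted p = 0.178). The Cy5 signal differed by 0.50 ± 0.15 under the same treatment (limma, adjusted p = 0.303). The part of the reference channel in the small ratio difference was not tested.

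**Figure D2:**
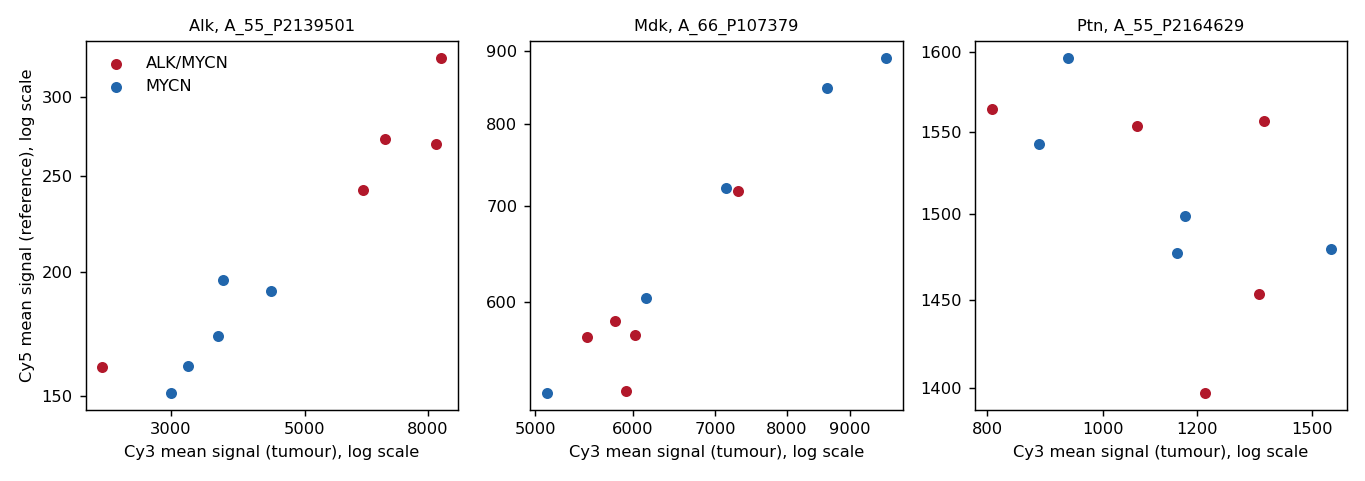
Mean signal of the reference channel (Cy5, vertical, log scale) against that of the tumour channel (Cy3, horizontal, log scale) at the brightest probes of Alk, Mdk and Ptn, 1 point per array, red for ALK/MYCN and blue for MYCN tumours. After background correction and quantile normalisation of each channel, the r of log2 Cy5 with log2 Cy3 was 0.93 at Alk, 0.96 at Mdk and -0.07 at Ptn. It is not the r of the plotted signals. The plotted reference signal of Ptn stays between 1397 and 1596.

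The Alk probe was designed on mouse sequence, and whether it reads transcripts of the ALK transgene was not determined, so its level does not check the genotype. The same holds for Mycn, whose probe gave 3.26, 2.89, 3.27, 4.83 and 3.98 in ALK/MYCN 1 to 5 and 0.33, 0.40, 1.21, 0.83 and 1.24 in MYCN 1 to 5, a rise of 2.85 ± 0.35 (limma, adjusted p = 7.17e-04). ALK/MYCN 4, the tumour of lowest Alk, had the highest level at Mycn.

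Ltk, the sister receptor of Alk, was near the limit of detection. Its signal was clear of background on 4 of 5 ALK/MYCN arrays and on 0 of 5 MYCN arrays. The levels were -0.11, -0.20, -0.25, -0.42 and -0.23 in ALK/MYCN 1 to 5 and -0.60, -0.18, -0.72, -0.35 and -0.45 in MYCN 1 to 5, and the groups overlapped. Without a filter on dim probes Ltk did not pass (limma, adjusted p = 0.220). The brightest Ltk spot, on ALK/MYCN 4 with a Cy3 signal of 161 against 55.8 to 82.0 in the other ALK/MYCN tumours, also had a Cy5 signal of 216, where the other 9 arrays gave 95.5 to 118. The size of the difference depended on background correction, at 0.22 here and 1.44 in the scanner-processed signals.

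The ligands of both receptors were not measurable. The probes for Alkal1 and Alkal2, named Fam150a and Fam150b on the array, were well above background on 0 of 10 arrays. Their Cy3 signals were 28.8 to 43.0 for Alkal1 and 24.4 to 53.2 for Alkal2.

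Pleiotrophin differed more between tumours than between groups. At A_55_P2164629 the levels were -0.66, -0.95, -0.20, -0.37 and -0.45 in ALK/MYCN 1 to 5 and 0.08, -0.30, -0.64, -0.24 and -0.89 in MYCN 1 to 5. The highest tumour was MYCN 1 and the lowest ALK/MYCN 2, which shared slide 1. The means were -0.53 ± 0.29 and -0.40 ± 0.37 (SD, n = 5 each), and the difference was -0.13 ± 0.19 with an interval from -0.56 to 0.30 (limma, adjusted p = 0.660). The other probe, A_55_P2183404, gave -0.48, -0.88, -0.18, -0.08 and -0.39 against 0.00, -0.20, -0.49, -0.25 and -0.74. Its difference was -0.07 ± 0.17 (limma, adjusted p = 0.811), and at both probes ALK/MYCN 2 was lowest and MYCN 1 highest. Within slide 1 the differences of the 2 probes were -1.03 and -0.88, within slide 2 -0.17 and 0.01, and within slide 3 0.15 and 0.09. The sign turned with median centring, at 0.01 and 0.08, and with centring on spike-in control spots, at 0.15 and 0.22.

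Midkine was high over the reference in every tumour and a little lower in ALK/MYCN tumours. The probe A_66_P107379 gave 3.27, 3.26, 3.26, 3.12 and 3.23 in ALK/MYCN 1 to 5 and 3.46, 3.34, 3.47, 3.43 and 3.27 in MYCN 1 to 5. The groups did not overlap, although ALK/MYCN 1 at 3.265 and MYCN 5 at 3.271 were nearly equal; 18.9% of all tested probes had no overlap. The means were 3.23 ± 0.06 and 3.39 ± 0.09 (SD, n = 5 each), and the difference of -0.17 ± 0.06, with an interval from -0.31 to -0.03, did not pass (limma, adjusted p = 0.0802). The interval is not adjusted for the number of probes.

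The other Mdk probe, A_55_P1971897, which holds the polyadenylation hexamer shown above, gave 4.16, 4.12, 4.23, 4.10 and 3.97 against 4.35, 4.11, 4.45, 4.47 and 4.43. Here MYCN 2 lay among the ALK/MYCN tumours. The difference was -0.24 ± 0.08 (limma, adjusted p = 0.0605), and without MYCN 2 it was -0.31 and passed (adjusted p = 0.0162). It also passed with array weights (-0.29, adjusted p = 0.0238) and with ALK/MYCN 3, MYCN 2 and MYCN 5 left out as a set (-0.33, adjusted p = 0.0385). After scaling of the arrays both probes passed, at -0.37 for A_66_P107379 (adjusted p = 0.0270) and -0.49 for A_55_P1971897 (adjusted p = 0.0132). Centring on spike-in control spots, which moved the median of all probes by 0.23, turned the signs to 0.12 and 0.04. With median centring the differences were -0.013 for A_66_P107379 and -0.094 for A_55_P1971897, and neither passed. The size and sign of the midkine difference therefore depended on the normalisation. After the channel normalisation used for Alk, Cy5 followed Cy3 at both probes, with r = 0.96 and 0.89 over 10 arrays. Endothelial markers moved with A_66_P107379 across tumours (r = 0.79 over 10 tumours, and 0.45 for deviations from the group means). Macrophage markers and fibroblast and pericyte markers did so too, with r = 0.64 and 0.38. Glial and noradrenergic markers moved against it, with r = -0.65 and -0.63. For deviations from the group means these were 0.07, -0.04, 0.19 and -0.21. All 6 endothelial markers were measured, and their mean level ran from 0.42 to 1.20 in the ALK/MYCN group and from 1.08 to 1.93 in the MYCN group. The part of these cell types in the midkine difference was not tested.

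Ptprz1 rose on both probes that could be tested. At A_51_P206405 the levels were 2.55, 2.26, 2.74, 2.17 and 3.40 in ALK/MYCN 1 to 5 and 0.24, 0.96, 1.78 and -0.06 in MYCN 1 to 4. The spot on MYCN 5 was marked by the scanner as an outlier and left out, with a Cy3 signal of 708 and a Cy5 signal of 936 where the Cy5 of the other 9 arrays was 62.3 to 92.2. The groups did not overlap, and within the MYCN group MYCN 3 was closest to the ALK/MYCN tumours. The means were 2.63 ± 0.49 (SD, n = 5) and 0.73 ± 0.82 (SD, n = 4), and the difference was 1.90 ± 0.38, or 3.72-fold, with an interval from 1.03 to 2.76 (limma, adjusted p = 0.00801).

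The neighbouring probe A_55_P2000439 had a value in every tumour, 2.33, 2.21, 3.08, 2.01 and 3.34 in ALK/MYCN 1 to 5 and 0.15, 1.11, 1.61, 0.13 and 0.73 in MYCN 1 to 5. Again the groups did not overlap and MYCN 3 was the highest MYCN tumour. The means were 2.60 ± 0.58 and 0.74 ± 0.63 (SD, n = 5 each), and the difference was 1.85 ± 0.34, or 3.61-fold (limma, adjusted p = 0.00445). Of all tested probes, 10.9% were higher without overlap between the groups.

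Ptprz1 was dim in part of the MYCN tumours, so the size of the rise is less certain than its direction. A_51_P206405 was well above background on 5 of 5 ALK/MYCN and 3 of 5 MYCN arrays, 1 of these 3 being the spot left out, and A_55_P2000439 on 5 and 4. At A_55_P2000439 the Cy3 signal ran from 332 to 981 in the ALK/MYCN group and from 46.9 to 214 in the MYCN group, while the reference was not above background on any array, with Cy5 signals of 60.5 to 80.9. The rise was therefore carried by the tumour channel. With Cy3 alone it was 2.25 and 2.07 at the 2 probes (limma, adjusted p = 0.00336 and 0.00203), in a fit that called 14.2% of all probes higher and 9.71% lower. In the deposited value table the differences were 3.16 and 2.91, and the 3.16 includes the MYCN 5 spot left out above. Scanner-processed signals without that spot gave 2.56 and 2.91. Within slides 1, 2 and 3 the difference at A_51_P206405 was 2.03, 2.55 and 2.03, and at A_55_P2000439 2.06, 2.35 and 2.20. Each of these rests on 1 tumour in at least 1 group, and MYCN 5, on slide 3, had no value at A_51_P206405. With ALK/MYCN 3, MYCN 2 and MYCN 5, the tumours highest in adrenal cortex, muscle and kidney markers, left out as a set, Ptprz1 A_51_P206405 differed by 1.95 and Ptprz1 A_55_P2000439 by 1.85 (limma, adjusted p = 0.0352 and 0.0334). That fit still held MYCN 4, the tumour highest in adipocyte markers, and leaving out any 1 tumour gave 1.63 to 2.25 and 1.66 to 2.07. The remaining probe, A_55_P2173682, was designed on a cDNA record other than the transcript of the 2 called probes. It was well above background on 1 of 10 arrays, ALK/MYCN 3, and its levels ran from -0.38 to -0.03 in the ALK/MYCN group and from -0.66 to -0.15 in the MYCN group, a difference of 0.09 without a test.

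**Figure D3:**
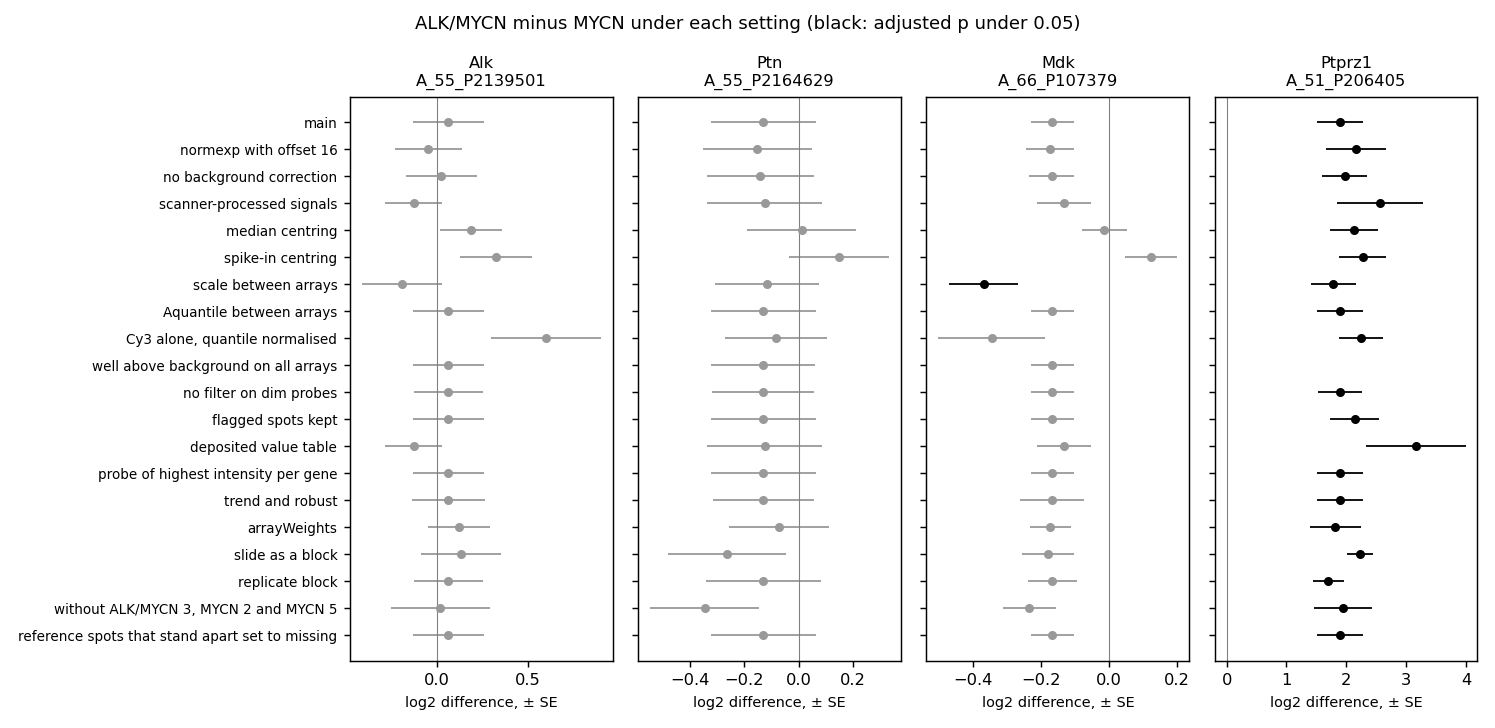
Difference between ALK/MYCN and MYCN tumours (log2 scale, point with standard error) at the brightest probes of Alk, Ptn, Mdk and Ptprz1 under each processing setting listed on the vertical axis; black marks an adjusted p under 0.05. Ptprz1 stays between 1.70 and 3.16 and is black wherever it was tested (not when all arrays must be above background), whereas the points of Alk, Ptn and Mdk lie on both sides of 0.

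Ptprz1 followed the genes of Schwann cells and neural crest glia from tumour to tumour. Ranked over 14159 genes, those most like A_51_P206405 across the 9 tumours with a value included Sox10 (r = 0.982), the transcription factor that specifies crest glia, and Wdr83os (r = 0.980). Part of such a correlation comes from the difference between the groups, and for deviations from the group means r was 0.958 and 0.964. Of the 9 genes listed as glial markers 6 were measured, and 4 rose, where 14% of all 22234 genes were higher and 12% lower. Among these, the transcription factor gene Foxd3 rose by 1.67 ± 0.20, the fatty acid binding protein gene Fabp7 by 2.71 ± 0.36 and Sox10 by 1.16 ± 0.16 (limma, adjusted p = 6.59e-04, 9.70e-04 and 0.00108). Foxd3 and Fabp7 were not above background on every array. With that required of all probes, 3 glial genes were tested and 2 rose. The myelin gene Mbp, at -0.11 ± 0.13, and S100b, at 0.17 ± 0.25, did not pass. Erbb3, a neuregulin receptor gene of Schwann cells, was not above background on any array, and Cdh19 did not pass the brightness filter.

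The mean level of the 6 measured glial genes ran from 1.59 to 2.44 in the ALK/MYCN group and from 0.49 to 1.20 in the MYCN group, without overlap. Its correlation with Ptprz1 was 0.978 at A_51_P206405 over 9 tumours (0.920 for deviations from the group means) and 0.986 at A_55_P2000439 over 10 (0.952). ALK/MYCN 5 had the highest value of both and MYCN 3 the highest among MYCN tumours. In these bulk samples more cells of a type and more RNA per cell cannot be told apart, and the part of glial cells in the Ptprz1 rise was not tested. From the signals as processed by the scanner, Sox10 differed by 0.59 and missed the threshold (limma, adjusted p = 0.118), while Foxd3 stood at 3.84.

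**Figure D4:**
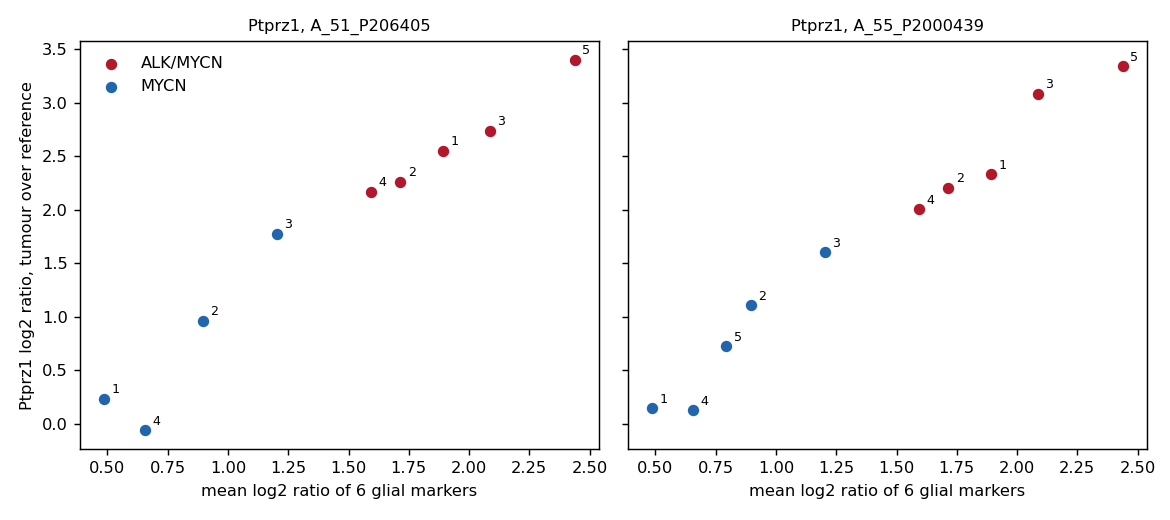
Ptprz1 level (vertical, log2 ratio) at its 2 tested probes against the mean log2 ratio of 6 glial marker genes (horizontal), 1 point per tumour labelled with its number, red for ALK/MYCN and blue for MYCN. Both values rank ALK/MYCN 5 first, and MYCN 3 is the highest blue point in each panel; MYCN 5 has no value at A_51_P206405.

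By the same measure over 10 tumours, Alk was most like Map3k4 (r = 0.937), Dlk1 (r = 0.936) and Tyw1 (r = 0.935). Mdk was most like Snx1 (r = 0.946), the Notch ligand gene Dll4 (r = 0.940) and the chemokine gene Ccl4 (r = 0.935). Ptn was most like Edrf1 (r = 0.893), Pgm3 (r = 0.860) and Xist (r = 0.858). For Alk the correlations were of the same size within groups, at 0.945, 0.940 and 0.936, and for Mdk they were lower, at 0.855, 0.851 and 0.824. Among the 5 genes themselves the correlation farthest from 0 was that of Mdk with Ptprz1, at -0.707. It was taken over both groups together, so the difference between the groups enters it. The r for deviations from the group means is not given for this pair.

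The other receptors of midkine and pleiotrophin moved in both directions. Of 13 listed receptors and co-receptors, all measured, 2 rose and 3 fell, and their median difference was -0.11 against -0.004 over all 22234 genes, of which 14% were higher and 12% lower. Cspg5, which encodes the neural proteoglycan neuroglycan C, rose by 1.68 ± 0.17 (limma, adjusted p = 4.18e-04). Ncl, encoding nucleolin, fell by 0.49 ± 0.08 and the syndecan gene Sdc1 by 0.51 ± 0.10 (limma, adjusted p = 0.00280 and 0.00496). With centring on spike-in spots neither fall passed, at -0.27 and -0.22 (adjusted p = 0.0621 and 0.0800). The others to pass were Sdc3, at 0.40 ± 0.11, and the integrin gene Itgb3, at -1.12 ± 0.30, both named after their values were seen. Without ALK/MYCN 5 the count was 1 higher and 2 lower.

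Of 7 binding partners of PTPRZ1, counted with its sister phosphatase gene Ptprg, 4 rose and none fell, with a median of 0.55. The share over all 22234 genes, for this list and the next, was 14% higher and 12% lower. Cntn1, encoding the axonal adhesion molecule contactin, rose by 1.64 ± 0.09, the adhesion molecule gene L1cam by 1.52 ± 0.13 and Ncam1 by 0.86 ± 0.12 (limma, adjusted p = 5.16e-05, 1.75e-04 and 0.00117). Ptprg, named after its value was seen, rose by 0.55 ± 0.14 (limma, adjusted p = 0.0206). Nrcam, at 0.55 ± 0.28, and the extracellular matrix genes Tnr and Tnc, at 0.19 ± 0.20 and -0.04 ± 0.16, did not pass. Of 7 genes of PTPRZ1 substrates only the kinase gene Fyn passed, at 0.45 ± 0.09 (limma, adjusted p = 0.00843; 0.73 with spike-in centring). The adducin gene Add2 and the beta-catenin gene Ctnnb1 did not pass, at -0.20 ± 0.09 and -0.17 ± 0.08, and both were above 0 with spike-in centring. After scaling of the arrays Add2 was lower and passed (-0.27, adjusted p = 0.0450), which gave 1 substrate gene higher and 1 lower.

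Of 18 genes of the adaptors and signalling proteins that act directly below ALK, all measured, 8 rose and none fell, with a median of 0.31. Over all 22234 genes 14% were higher and 12% lower, with a median of -0.004. Irs2, encoding an insulin receptor substrate, rose by 1.06 ± 0.16, the adaptor genes Shc1 by 1.04 ± 0.22 and Frs2 by 0.36 ± 0.08 (limma, adjusted p = 0.00147, 0.0088 and 0.00851; Frs2 0.61 with spike-in centring). The count was 4 with slide as a block, where 3306 of all 30857 tested probes were higher, and 13 with spike-in centring, where 11791 were. On leaving out any 1 tumour the count lay between 5 and 7, and it was 5 without ALK/MYCN 1, ALK/MYCN 4 or MYCN 3. The lists are given by counts and medians and were not tested as sets.

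**Figure D5:**
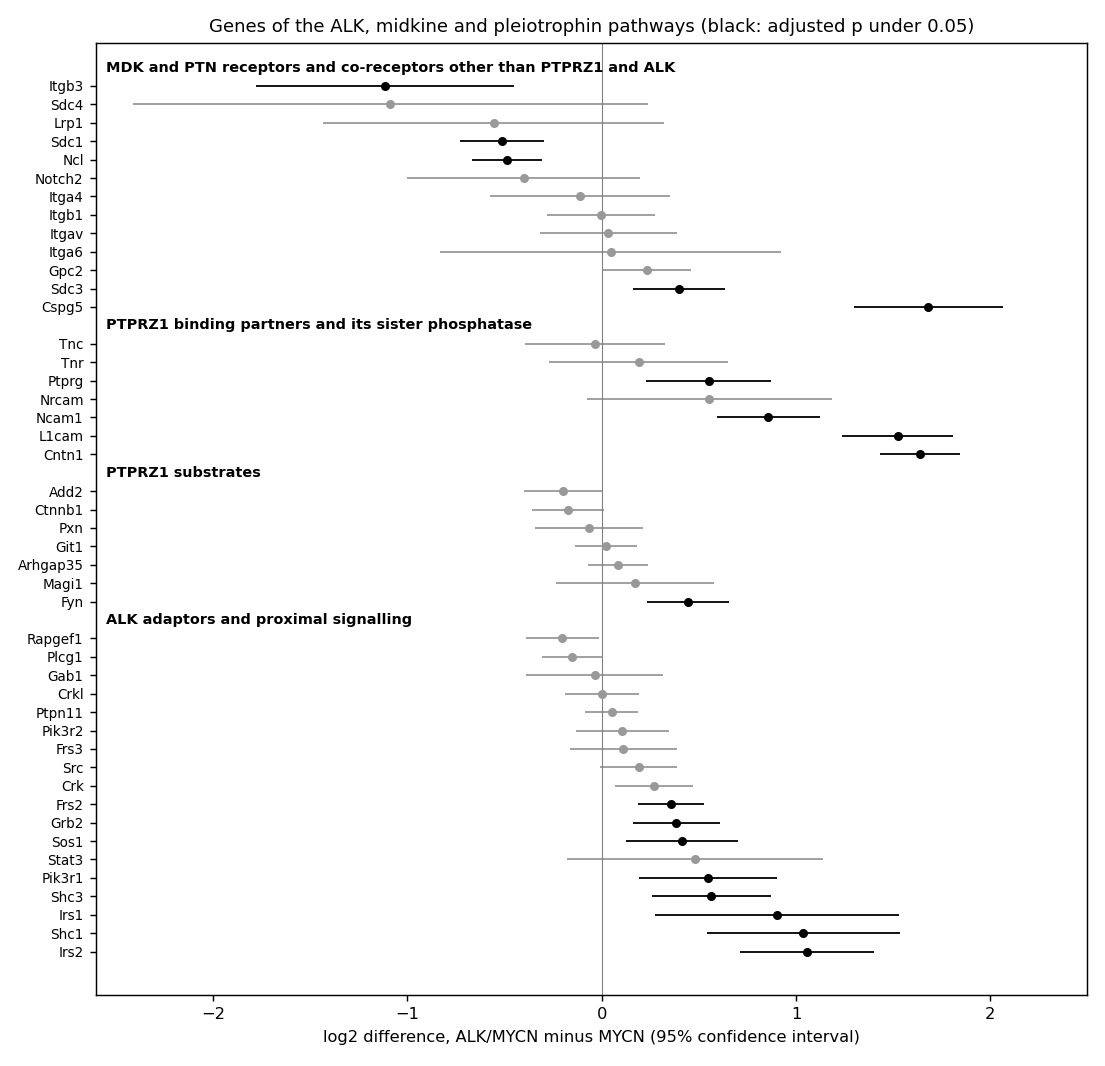
Difference between ALK/MYCN and MYCN tumours (log2 scale, point with 95% confidence interval) for 45 genes in 4 lists, 1 row per gene, ordered by difference within each list; black marks an adjusted p under 0.05 over all probes. Black points stand on both sides of 0 among the receptors and to the right of 0 in the other 3 lists.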

How the data were processed

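Tumour (Cy3) and reference (Cy5) RNA were compared on Agilent mouse arrays. Intensities were extracted with Feature Extraction 10.7.3.1 on build mm9, per the file headers. The deposited value table holds log2 ratios of scanner-processed Cy3 over Cy5, found by comparison (within 5.01e-04 on probes with 1 spot); column medians lay between -0.185 and -0.034.

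From the deposited intensities, mean signals were corrected with normexp (offset 50, median local background), normalised by loess within arrays and turned to tumour over reference. Spots the scanner marked as outliers (177 to 345 per array) were dropped, and repeat spots of a probe averaged. Tests covered the 30857 probes whose Cy3 exceeded background clearly on 5 or more of 10 arrays. They were two-sided, with limma 3.58.1 (R 4.3.3) and Benjamini-Hochberg adjustment. Only this limma step was tried on simulated log2 ratios, with a far smaller share of changed probes than was called here. Background correction, normalisation and the brightness filter were not simulated. Pathway genes are shown by their brightest probe, with values for up to 3 per list of smallest p; named genes most like each member are from the 3 of highest Pearson r. A few marker genes are not reported here. Members and lists were chosen with earlier results of these data known. Labels number each tumour as a biological replicate. Numbers were not treated as pairs, and slides were tried as a block.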

Additional observations from a re-analysis of the deposited data

Results flagged for a closer look

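A tumour far from the others of its group was found in 2 of the 18 groups of 4 or 5 values (9 probes in both genotypes), where chance alone flags about 1 in 20. Mdk A_66_P107379 gave 3.12 in ALK/MYCN 4, while the other 4 ALK/MYCN tumours lay between 3.23 and 3.27. Ptprz1 A_55_P2173682 gave -0.66 in MYCN 5, against a range of -0.26 to -0.15 over the other 4 MYCN tumours. That probe was not above background in the tumour channel of MYCN 5, and the Cy5 signal of the spot, 121, was the highest of the 10 arrays.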

How the results depend on the processing

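The Ptprz1 rise passed in all 28 alternatives at A_51_P206405 (1.63 to 3.16) and all 27 at A_55_P2000439 (1.66 to 2.91). These alternatives are not independent of each other. Aquantile normalisation between arrays leaves the ratios as they are and gave the main result again. The deposited value table holds the scanner-processed ratios, with flagged spots kept. The 3.16 is from the deposited value table, where the flagged MYCN 5 spot is included. The cause of the changes below was not tested. Alk A_55_P2139501 turned to -0.045 with a normexp offset of 16, -0.126 in scanner-processed signals and in the deposited value table, -0.190 after scaling of arrays and -0.059 without ALK/MYCN 2 (range -0.059 to 0.27 on leaving out 1 tumour). Ltk moved from 0.22 to 0.40 with offset 16, 0.45 with spike-in centring, 0.50 with Cy3 alone and 1.44 in scanner-processed signals and the deposited table. Ptn A_55_P2164629 turned to 0.011 with median and 0.148 with spike-in centring; Ptn A_55_P2183404 turned to 0.079 with median centring and with Cy3 alone, 0.22 with spike-in centring, 0.017 in scanner-processed signals and the deposited table, 0.053 without ALK/MYCN 2 and 0.018 without MYCN 1 (range -0.168 to 0.053 on leaving out 1 tumour). With spike-in centring Mdk A_66_P107379 turned to 0.123, Mdk A_55_P1971897 to 0.043, Add2 to 0.084 and Ctnnb1 to 0.076; after scaling of arrays Mdk A_66_P107379 passed at -0.367. Ptprz1 A_55_P2173682 was at 0.69 in scanner-processed signals and the deposited table. Of all probes, 7684 passed; the count was 12812 (11791 higher, 1021 lower) with spike-in centring, 4831 without ALK/MYCN 3, MYCN 2 and MYCN 5 (highest in adrenal cortex, muscle and kidney markers) and 5327 to 7072 on leaving out 1 tumour. Median centring gave 6055 higher and 1713 lower against 4215 and 3469. Setting reference spots more than 2 log2 units from the median of their probe to missing was chosen after seeing the data and changed no member's call. Same-numbered tumours correlated at 0.30, -0.027, -0.097, -0.071 and -0.086, and only at number 1 was the best match the tumour of the same number. These correlations cannot show whether the numbers pair the tumours. With the replicate block Ptprz1 A_51_P206405 was at 1.70 (limma, adjusted p = 0.0158) and 5991 probes passed. Signals near background limit Ltk, Alkal1, Alkal2 and the MYCN values of Ptprz1. With probes required to be above background on all arrays, Ptprz1 was not tested.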

Other observations

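The reference RNA was the same on all arrays, yet its signal followed the tumour signal at many probes that were bright in the tumours. The correlation of log2 Cy5 with log2 Cy3 over the 10 arrays had a median of 0.71 over the 570 tested probes with a mean log2 ratio above 3, against 0.28 over the 13580 probes with a mean ratio below 0. Alk and both Mdk probes are among the former, at 0.93, 0.96 and 0.89. Ptn was at -0.07 and 0.43 and Ptprz1 at 0.49 and 0.06. These are descriptions over 10 arrays, of channels that were background corrected and quantile normalised between arrays.

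A reference spot more than 2 log2 units from the median of its probe over the arrays was found for 637 of 593050 spots (0.107%). The Ptprz1 A_51_P206405 spot on MYCN 5 was the only one among the member probes.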
